A study of Mus musculus with 13 samples.

Results

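Macrophages are the main phagocytes of the heart, and 32 genes that mark them or the monocytes they can arise from were followed in RNA from whole mouse hearts. The members were the rows of the deposited count tables whose gene symbol was on the list, and all 32 were found among 53278 symbols. The list contrasts resident genes (Cd163, Folr2, Timd4 and Mrc1) with lipid or scar associated genes (Gpnmb, Trem2 and Spp1), and the remaining members mark the lineage, complement, Fc receptors, clearance receptors, monocytes and secreted or lysosomal products. All hearts came from male C57Bl6 wild-type mice that were operated on at 12 weeks of age and sampled at 17 weeks. In the IR edit group (n = 4) ischaemia and reperfusion, in which the blood supply of part of the heart is cut off for a time and then restored, was combined with injection of a functional editing system for CaMKIIδ, a calcium-dependent kinase of heart muscle encoded by Camk2d. The IR virus group (n = 3) had the same injury and a control virus, the IR group (n = 3) had the injury and no injection, and the Sham group (n = 3) had sham surgery and no injection. The labels give neither the kind or dose of the virus nor a batch, and do not say whether the hearts of a group came from separate litters or surgery days, so the p-values measure the spread between these hearts.

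Resident heart macrophages of the mouse are largely seeded before birth and renew in place. They carry the scavenger receptor Cd163, the folate receptor Folr2, the phosphatidylserine receptor Timd4 and the mannose receptor Mrc1. After an infarct, monocytes that use the chemokine receptor Ccr2 enter the muscle and become macrophages, some of which switch on Gpnmb, Trem2 and Spp1 as they take up lipid and dead cells and settle in the scar. Gpnmb encodes a glycoprotein of lysosomes and the cell surface, Trem2 a lipid-sensing receptor, Spp1 the secreted matrix protein osteopontin, and Lgals3 the sugar-binding protein galectin-3. Spp1 and Lgals3 can also be made by other cells of an injured heart, and a bulk measurement cannot say which cells the reads came from.

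Promoter windows of the 4 genes with the largest positive log2 difference between injured hearts without the editing system and Sham hearts are shown because these genes carry the main pattern of the list. Each window runs from 250 bases before to 30 bases after the annotated start (RefSeq, GRCm38.p6), 280 bases in all. Capitals mark a match to the AP-1 motif TGANTCA or the PU.1 motif GAGGAAGT.
Gpnmb, chr6:49036268-49036547, plus strand: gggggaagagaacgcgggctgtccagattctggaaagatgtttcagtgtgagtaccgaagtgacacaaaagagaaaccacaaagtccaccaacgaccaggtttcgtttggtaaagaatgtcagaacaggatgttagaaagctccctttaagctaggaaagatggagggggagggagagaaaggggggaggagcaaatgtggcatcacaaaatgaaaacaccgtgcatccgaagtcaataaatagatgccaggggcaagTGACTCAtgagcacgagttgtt
Trem2, chr17:48346151-48346430, plus strand: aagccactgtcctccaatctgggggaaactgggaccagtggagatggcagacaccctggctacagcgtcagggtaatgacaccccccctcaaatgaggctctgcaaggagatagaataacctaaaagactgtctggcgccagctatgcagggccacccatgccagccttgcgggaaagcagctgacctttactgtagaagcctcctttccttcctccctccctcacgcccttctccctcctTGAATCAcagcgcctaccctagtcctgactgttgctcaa
Spp1, chr5:104434861-104435140, plus strand: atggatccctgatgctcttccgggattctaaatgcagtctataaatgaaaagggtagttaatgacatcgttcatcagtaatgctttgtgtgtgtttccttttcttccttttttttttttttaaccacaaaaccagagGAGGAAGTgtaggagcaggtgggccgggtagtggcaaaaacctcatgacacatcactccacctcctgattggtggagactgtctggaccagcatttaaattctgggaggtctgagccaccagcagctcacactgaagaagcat
Lgals3, chr14:47373610-47373889, plus strand: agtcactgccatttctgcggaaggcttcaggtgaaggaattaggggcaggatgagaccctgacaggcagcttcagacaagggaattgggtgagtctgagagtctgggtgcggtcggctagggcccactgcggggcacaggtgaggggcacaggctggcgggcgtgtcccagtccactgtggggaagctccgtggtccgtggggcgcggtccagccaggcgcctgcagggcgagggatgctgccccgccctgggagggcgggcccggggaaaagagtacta
AP-1 is a factor family switched on by stress and growth signals, and PU.1 is the master factor of the macrophage lineage. Both strands were searched, and TGANTCA reads the same on both, while GAGGAAGT reads ACTTCCTC on the other. Gpnmb held TGACTCA at position 9 counted from the start and Trem2 held TGAATCA at position -9, and 7.45% of the 32541 promoter windows of the table held a match to TGANTCA. Spp1 held GAGGAAGT at position -113, a string found in 2.83% of the windows. The Lgals3 window held neither, but it lies within the GENCODE span of the gene given below and not at the start of that span. None of the 4 windows held the E-box CACGTG of the lysosome gene factors MITF and TFEB, which 6.81% of all windows held. None held the MITF M-box core CATGTG on either strand, which 13.4% of all windows held. A match is a string of letters in a window and does not show that a factor was bound. Of the 32 members, 26 had an entry in the promoter table. In the GENCODE annotation of GRCm38 all 32 are protein-coding genes, Gpnmb at chromosome 6, 49036546 to 49070929, Trem2 at chromosome 17, 48346401 to 48354147, Spp1 at chromosome 5, 104435118 to 104441050, and Lgals3 at chromosome 14, 47367751 to 47386160, all on the plus strand.

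Total counts ran from 20634820 to 27265276 per library and mitochondrial reads made up 29.7% to 38.5% of them. Camk2d averaged 223 ± 17.9 CPM in IR edit hearts, 217 ± 18.4 CPM in IR virus hearts, 241 ± 5.42 CPM in IR hearts and 251 ± 45.1 CPM in Sham hearts (counts per 1e6 reads, SD). It was called (an adjusted p under 0.05) in no comparison, the smallest adjusted p being 0.369. Gene counts do not show whether single bases of Camk2d were edited. On the first principal component of all tested genes, which held 27.5% of the variance, the Sham hearts lay between 22.2 and 26.5. IR edit replicates 1 and 3 and all IR virus and IR hearts lay between -10.2 and 9.17. IR edit replicates 2 and 4 stood apart from these at -34.0 and -45.1, on the side away from Sham. Results that rest on IR edit are therefore also given without these 2 hearts where that changes a call or its direction.

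Of the 32 members, 29 had enough counts to be tested. Per kilobase of exon, the lysozyme gene Lyz2 was the most abundant in every group, with a mean of 76.8 CPM per kilobase in IR edit hearts, 80.6 in IR virus hearts, 81.9 in IR hearts and 61.3 in Sham hearts. The complement genes C1qa and C1qb came next in all 4 groups, followed by the lysosomal protease gene Ctss. Gpnmb and Trem2 were among the scarcest on this scale, while Spp1 and Lgals3 lay nearer the middle in the IR virus and IR groups. Gpnmb averaged 0.237 CPM per kilobase in IR edit hearts, 0.690 in IR virus hearts, 0.641 in IR hearts and 0.194 in Sham hearts. Trem2 averaged 0.182 CPM per kilobase in IR edit hearts, 0.291 in IR virus hearts, 0.296 in IR hearts and 0.132 in Sham hearts. Spp1 averaged 0.546 CPM per kilobase in IR edit hearts, 1.51 in IR virus hearts, 1.90 in IR hearts and 0.278 in Sham hearts. This placed it at rank 20 of the 32 members in IR virus, at rank 19 in IR and at rank 25 in IR edit.

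Gpnmb was the member that separated the groups most clearly. It stood at 1.15, 2.15, 1.35 and 1.54 CPM in IR edit hearts, at 5.37, 4.24 and 3.87 CPM in IR virus hearts, at 4.98, 4.99 and 2.56 CPM in IR hearts, and at 1.70, 1.38 and 0.710 CPM in Sham hearts. Every IR virus and IR heart was above every IR edit and Sham heart, and the IR edit and Sham hearts overlapped. These levels rest on 26 to 48 reads per IR edit library, 92 to 135 per IR virus library, 59 to 117 per IR library and 15 to 45 per Sham library. In bulk RNA, fewer cells of a type and less RNA per cell cannot be told apart.

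In edgeR's quasi-likelihood test with Benjamini-Hochberg adjustment over 15690 genes, Gpnmb was 2.92-fold lower in IR edit than in IR virus hearts (log2 fold change -1.54 ± 0.28 SE, adjusted p = 0.0108). It was 2.71-fold lower in IR edit than in IR hearts (-1.44 ± 0.28, adjusted p = 0.0187). It was the only one of the 29 tested members called in either comparison. The background was 2.02% of all tested genes called in IR edit against IR virus (1.06% lower) and 1.42% in IR edit against IR (0.637% lower). The call against IR virus was lost without IR virus replicate 1 (log2 fold change -1.40, adjusted p = 0.0736). The call against IR was lost without IR replicate 1 (adjusted p = 0.123) or IR replicate 2 (adjusted p = 0.122). Without IR edit replicates 2 and 4, Gpnmb kept its call, at -1.86 against IR virus (adjusted p = 0.0253) and -1.75 against IR (adjusted p = 0.0434).

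Set against the mean of IR and IR virus, a comparison added after the values were seen, Gpnmb was 2.81-fold lower in IR edit (log2 fold change -1.49 ± 0.25, adjusted p = 0.00337). That call was kept in all 13 fits that left out 1 library each. Of the 29 tested members, 2 were called in this comparison, both lower, Gpnmb and Spp1, where 3.73% of all tested genes were called (1.80% lower). The same 2 members were called in the test for any difference among the 4 groups, with adjusted p = 0.0042 for Gpnmb and 0.0206 for Spp1 (background 3.36%). Between IR edit and Sham hearts Gpnmb differed by a log2 fold change of 0.26 ± 0.33 (95% interval -0.43 to 0.95, adjusted p = 0.686), and this value turned to -0.05 without IR edit replicates 2 and 4 and to -0.01 without Sham replicate 3.

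**Figure D1:**
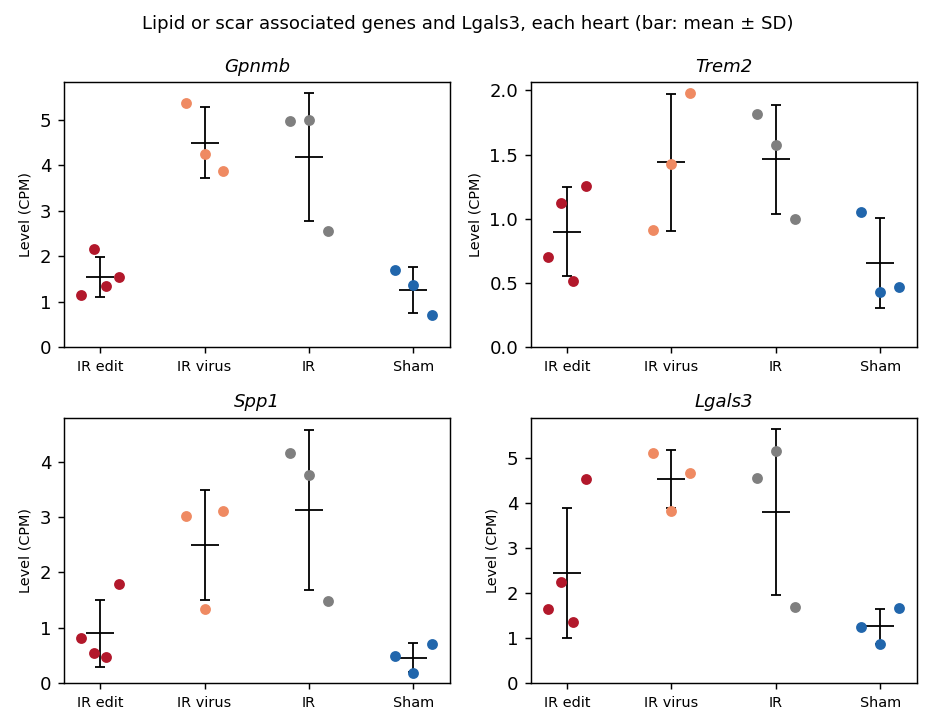
Levels in CPM (y axis, from 0) of Gpnmb, Trem2, Spp1 and Lgals3 in each heart, with groups on the x axis, 1 point per heart and bars for mean ± SD. For Gpnmb the 4 IR edit hearts sit between 1.15 and 2.15 CPM, below all IR virus and IR hearts.

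Spp1, the osteopontin gene, followed with wider spread. It stood at 0.816, 0.538, 0.466 and 1.78 CPM in IR edit hearts, at 3.03, 1.34 and 3.11 CPM in IR virus hearts, at 4.16, 3.75 and 1.47 CPM in IR hearts, and at 0.491, 0.172 and 0.710 CPM in Sham hearts. IR edit replicate 4 lay above 1 IR virus heart and 1 IR heart, so those groups overlapped, while all IR virus and IR hearts were above all Sham hearts. Read counts were low, from 4 to 15 per Sham library and from 9 to 44 per IR edit library. Spp1 was 3.02-fold lower in IR edit than in the mean of IR and IR virus (log2 fold change -1.60 ± 0.40, adjusted p = 0.0396 in edgeR). It missed the threshold against IR virus (-1.43 ± 0.46, adjusted p = 0.142) and against IR (-1.76 ± 0.45, adjusted p = 0.0703) taken alone. The call against the mean was lost in 7 of the 13 fits that left out 1 library, namely IR edit 1, 2 or 3, IR virus 1 or 3, and IR 1 or 2, with adjusted p up to 0.136. It was also lost without IR edit replicates 2 and 4 (-2.07, adjusted p = 0.0734).

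Trem2 and Lgals3 were not called in any comparison. Trem2 stood at 0.705, 1.12, 0.517 and 1.25 CPM in IR edit hearts, at 0.916, 1.43 and 1.98 CPM in IR virus hearts, at 1.82, 1.58 and 0.997 CPM in IR hearts, and at 1.06, 0.431 and 0.473 CPM in Sham hearts. All 4 groups overlapped. Its log2 difference between IR edit and the mean of IR and IR virus was -0.67 ± 0.31 (adjusted p = 0.275). Lgals3 stood at 1.63, 2.24, 1.35 and 4.53 CPM in IR edit hearts, at 5.10, 3.82 and 4.67 CPM in IR virus hearts, at 4.55, 5.16 and 1.69 CPM in IR hearts, and at 1.25, 0.861 and 1.66 CPM in Sham hearts. IR edit replicate 4 was within the range of the IR virus hearts, and IR replicate 3 was close to the Sham hearts. The log2 difference of Lgals3 between IR edit and the mean of IR and IR virus was -0.75 ± 0.33 (adjusted p = 0.241).

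Injured hearts without the editing system had higher mean levels of these 4 genes than Sham hearts, but no member passed the threshold there. In IR virus against Sham, 0 of 29 members were called by edgeR, with a background of 0.0127% of all tested genes, while 9 members had an unadjusted p under 0.05 (15.4% of all genes did) and the Wald test of DESeq2 called 3, Gpnmb, Lgals3 and Spp1 (1.49% of all genes given an adjusted p by it). In IR against Sham, 0 were called (background 0.0127%), 8 had an unadjusted p under 0.05 (8.33% of all genes) and DESeq2 called the same 3 genes (0.363% of all genes). For the mean of IR and IR virus against Sham, 0 were called (background 0.0191%), 10 had an unadjusted p under 0.05 (14.0% of all genes) and DESeq2 called those 3 again (1.54% of all genes). In this last comparison the log2 differences were 1.75 ± 0.28 for Gpnmb (adjusted p = 0.0504), 2.61 ± 0.51 for Spp1 (adjusted p = 0.0639), 1.73 ± 0.40 for Lgals3 (adjusted p = 0.0876) and 1.11 ± 0.36 for Trem2 (adjusted p = 0.215). These comparisons share the 3 Sham hearts and so are not independent of each other. The calls depended on the fit, since a fit of only the groups compared, or one without IR edit replicates 2 and 4, brought Gpnmb, Spp1 and Lgals3 past the threshold for the mean of both injured groups against Sham. All genes called in these 2 fits were 394 and 377.

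The resident genes did not follow the lipid or scar genes. Cd163 stood at 34.8, 25.1, 22.2 and 24.4 CPM in IR edit hearts, at 19.4, 26.8 and 19.1 CPM in IR virus hearts, at 18.1, 20.9 and 23.7 CPM in IR hearts, and at 59.0, 23.8 and 27.8 CPM in Sham hearts. Sham replicate 1 was far above the rest, and the other 2 Sham hearts lay within the range of IR edit. The log2 difference between the mean of IR and IR virus and Sham was -0.79 ± 0.23 (adjusted p = 0.165), and it shrank to -0.28 without Sham replicate 1. Between IR edit and Sham it was -0.47 ± 0.25 (adjusted p = 0.270) and turned to 0.04 without Sham replicate 1.

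Timd4, which marks the long-lived resident cells, stood at 2.15, 2.20, 2.07 and 1.62 CPM in IR edit hearts, at 1.31, 1.89 and 1.14 CPM in IR virus hearts, at 1.82, 1.71 and 1.73 CPM in IR hearts, and at 2.87, 2.07 and 2.18 CPM in Sham hearts. Every IR virus and IR heart was below every Sham heart, while IR edit overlapped with all 3 other groups. Its log2 difference was -0.58 ± 0.18 between the mean of IR and IR virus and Sham (adjusted p = 0.197) and 0.33 ± 0.17 between IR edit and that mean (adjusted p = 0.326). Folr2 averaged 1.34 ± 0.233 CPM in IR edit, 1.25 ± 0.0842 CPM in IR virus, 1.24 ± 0.183 CPM in IR and 1.15 ± 0.356 CPM in Sham hearts (SD). Mrc1 averaged 62.5 ± 5.84 CPM in IR edit, 55.0 ± 3.15 CPM in IR virus, 56.2 ± 2.08 CPM in IR and 56.3 ± 10.8 CPM in Sham hearts. For Folr2 and Mrc1 the groups overlapped and the log2 differences in all pairwise comparisons lay between -0.03 and 0.22. None of the 4 resident genes was called in any comparison.

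**Figure D2:**
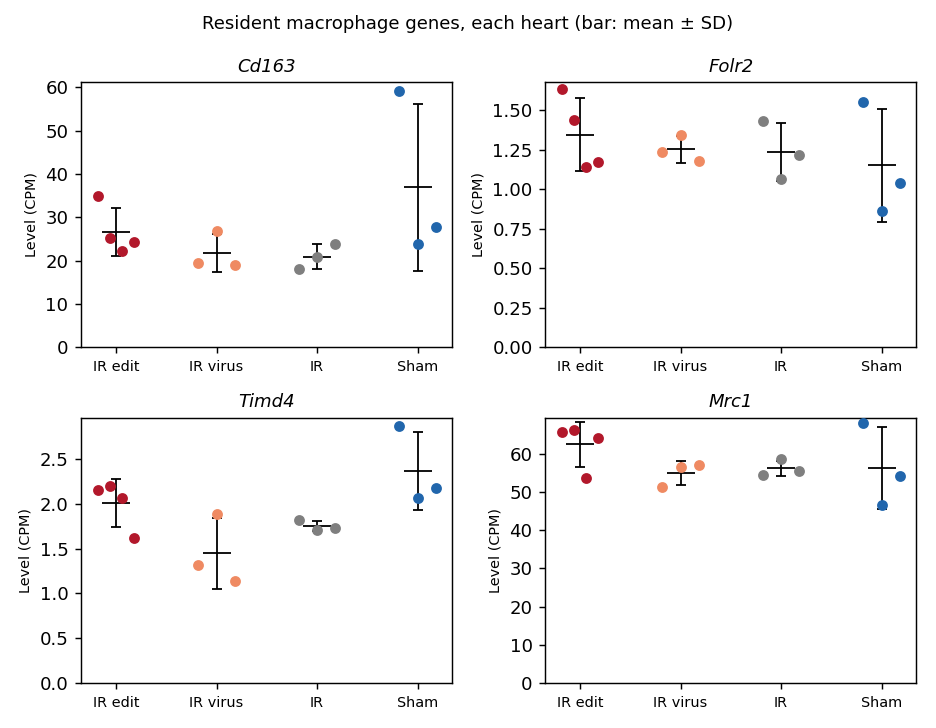
Levels in CPM (y axis, from 0) of Cd163, Folr2, Timd4 and Mrc1 in each heart, with groups on the x axis, 1 point per heart and bars for mean ± SD. Sham replicate 1, at 59.0 CPM, sets the Sham mean of Cd163, and Folr2 and Mrc1 overlap in all groups.

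The contrast of both sets was taken within each heart, as the mean log2 CPM of Gpnmb, Trem2 and Spp1 minus that of Cd163, Folr2, Timd4 and Mrc1. It was -3.34, -2.88, -3.27 and -2.26 in IR edit hearts, -1.35, -1.94 and -1.11 in IR virus hearts, -1.09, -1.15 and -2.18 in IR hearts, and -3.48, -3.58 and -3.48 in Sham hearts. All IR virus and IR hearts were above all IR edit hearts, and all IR edit hearts were above all Sham hearts, with IR edit replicate 4 and IR replicate 3 the closest to each other. Group means were -2.93 ± 0.50 for IR edit, -1.47 ± 0.43 for IR virus, -1.48 ± 0.61 for IR and -3.51 ± 0.055 for Sham (SD). The difference was -1.47 for IR edit minus IR virus, -1.46 for IR edit minus IR, 0.58 for IR edit minus Sham, 2.05 for IR virus minus Sham and 2.04 for IR minus Sham. No test was made, since the genes were chosen with earlier results known. The resident part of the contrast was 3.06 ± 0.17 in IR edit, 2.80 ± 0.19 in IR virus, 2.87 ± 0.038 in IR and 3.11 ± 0.40 in Sham hearts. The lipid or scar part was 0.13 ± 0.44 in IR edit, 1.34 ± 0.25 in IR virus, 1.39 ± 0.59 in IR and -0.40 ± 0.44 in Sham hearts on the same log2 scale.

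**Figure D3:**
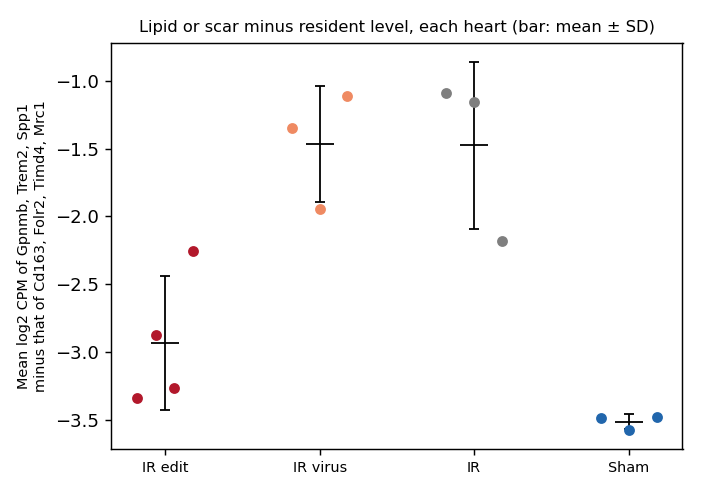
Mean log2 CPM of the 3 lipid or scar genes minus that of the 4 resident genes (y axis) in each heart, with groups on the x axis, 1 point per heart and bars for mean ± SD. IR edit hearts lie between -3.34 and -2.26, below the IR virus and IR hearts and above the Sham hearts.

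Leukocyte RNA as a whole gave no such split. The summed CPM of 12 general leukocyte genes, among them Ptprc (CD45) and Laptm5, ran from 84.3 to 111 in IR edit, from 101 to 108 in IR virus, from 101 to 109 in IR and from 74.7 to 106 in Sham hearts. Gpnmb reads equalled 1.16% to 1.995% of the reads of that list in IR edit hearts, 3.58% to 5.08% in IR virus hearts, 2.53% to 4.66% in IR hearts and 0.778% to 1.84% in Sham hearts. Set against leukocyte reads, Gpnmb thus kept the same order of groups, with no overlap of IR edit with IR virus or IR. On this scale IR edit overlapped with both for Trem2, Spp1, Lgals3, Cd163, Folr2 and Timd4. Mrc1 reads equalled 57.8% to 66.7% of leukocyte reads in IR edit and 59.4% to 63.9% in Sham hearts. They equalled 48.5% to 56.0% in IR virus and 50.1% to 54.8% in IR hearts, with no overlap with IR edit or Sham. The summed CPM of the 32 members ran from 335 to 458 in IR edit, from 405 to 427 in IR virus, from 396 to 418 in IR and from 300 to 485 in Sham hearts.

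No member was called in IR edit against Sham, where 8.01% of all tested genes were. There 5 members had an unadjusted p under 0.05, Adgre1, Cx3cr1, Lgals3, Lyz2 and Mertk, against 23.6% of all genes. DESeq2 called 0 members there, and 1633 genes in all. The median log2 fold change of the tested members was 0.18, that of all tested genes -0.0015, and 24 of the 29 members had a positive value. In IR virus against IR no member was called and no gene at all (background 0%), and 1 member, Msr1, had an unadjusted p under 0.05 (3.84% of all genes did). DESeq2 called no member and no gene at all in that comparison.

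The lineage and phagocyte receptor genes lay close together in all groups. The scavenger receptor gene Cd68 averaged 4.70 ± 0.443 CPM in IR edit, 5.62 ± 0.387 CPM in IR virus, 4.998 ± 0.779 CPM in IR and 4.75 ± 0.927 CPM in Sham hearts (SD). Adgre1, which encodes F4/80, averaged 14.5 ± 2.71 CPM in IR edit, 13.1 ± 0.561 CPM in IR virus, 13.4 ± 0.948 CPM in IR and 11.5 ± 1.96 CPM in Sham hearts. Csf1r, the receptor for the macrophage growth factor CSF1, averaged 38.5 ± 6.99 CPM in IR edit, 35.8 ± 1.66 CPM in IR virus, 30.5 ± 0.271 CPM in IR and 30.5 ± 10.7 CPM in Sham hearts. The endotoxin co-receptor gene Cd14 ranged over all hearts from 2.11 CPM in Sham replicate 2 to 5.18 CPM in IR edit replicate 4. None of these 4 genes was called in any comparison.

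Ms4a7, a membrane protein gene of macrophages, had the largest ratio between group means of the lineage genes. It stood at 2.56, 2.11, 2.23 and 2.47 CPM in IR edit hearts, at 3.03, 3.23 and 2.61 CPM in IR virus hearts, at 3.94, 3.79 and 2.69 CPM in IR hearts, and at 2.68, 1.68 and 1.75 CPM in Sham hearts. All IR virus and IR hearts were above all IR edit hearts, and the Sham hearts overlapped with both sides. The log2 difference was -0.45 between IR edit and the mean of IR and IR virus (adjusted p = 0.151) and 0.64 between that mean and Sham (adjusted p = 0.164).

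The 3 chains of complement C1q, which tag debris for uptake, are encoded within 18675 bases of chromosome 4 (136880129 to 136898803, minus strand, GRCm38). C1qa averaged 22.7 ± 4.85 CPM in IR edit, 19.9 ± 2.51 CPM in IR virus, 18.5 ± 0.740 CPM in IR and 18.005 ± 6.79 CPM in Sham hearts. IR edit replicate 3 was the lowest of its group at 15.5 CPM, and Sham replicate 1 stood at 25.8 CPM against 14.5 and 13.7 CPM in the other Sham hearts. The lowest IR edit heart and the highest Sham heart were the same for C1qb and C1qc, and none of the 3 was called.

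No Fc receptor or adaptor gene was called in any comparison. Fcgr1, the high-affinity IgG receptor gene, averaged 2.09 ± 0.473 CPM in IR edit, 2.31 ± 0.709 CPM in IR virus, 2.54 ± 0.136 CPM in IR and 1.63 ± 0.522 CPM in Sham hearts. Its log2 difference between the mean of IR and IR virus and Sham was 0.56 (adjusted p = 0.312). The inhibitory receptor gene Fcgr2b, the activating receptor gene Fcgr3 and Fcer1g, the signalling chain gene of activating Fc receptors, had log2 differences between -0.04 and 0.26 in every pairwise comparison. Tyrobp, which encodes the adaptor through which TREM2 signals, averaged 3.83 ± 1.29 CPM in IR edit, 4.62 ± 0.252 CPM in IR virus, 3.95 ± 0.932 CPM in IR and 3.54 ± 1.26 CPM in Sham hearts, with overlap of all groups.

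Among clearance and scavenger receptors, Mertk, the receptor for dying cells, averaged 11.1 ± 0.234 CPM in IR edit, 11.4 ± 1.67 CPM in IR virus, 12.0 ± 0.969 CPM in IR and 13.4 ± 1.09 CPM in Sham hearts. Msr1, the scavenger receptor A gene, averaged 4.13 ± 0.515 CPM in IR edit, 3.35 ± 0.627 CPM in IR virus, 4.54 ± 0.501 CPM in IR and 4.29 ± 0.992 CPM in Sham hearts. Cx3cr1, the fractalkine receptor gene of patrolling monocytes and some macrophages, averaged 6.09 ± 1.97 CPM in IR edit, 5.78 ± 1.33 CPM in IR virus, 5.01 ± 1.11 CPM in IR and 4.19 ± 0.719 CPM in Sham hearts. Mertk had a log2 difference of -0.27 between IR edit and Sham (adjusted p = 0.119), the smallest adjusted p of any member in that comparison. Marco, a scavenger receptor gene of some tissue macrophages, had 1 read in the 13 libraries together.

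The monocyte genes were at or near the limit of detection. Chil3, a secreted lectin gene, had 19 reads in all, with at most 1 in an IR edit library, 4 in an IR virus library, 6 in an IR library and 3 in a Sham library. Plac8 had 3 to 17 reads per library and was not called. Ly6c2, the surface marker of classical monocytes, had 0 to 6 reads in 12 libraries and 200 in IR replicate 2, 241 in all, and was not tested. Its near copy Ly6c1, expressed in endothelium, had 619 to 1775 reads per library and 822 in IR replicate 2. Whether reads of one were counted for the other was not tested, and the Ly6c2 value of IR replicate 2 is uncertain.

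The enzyme and secreted product genes included Lyz2, the most abundant member. Lyz2 averaged 101 ± 15.2 CPM in IR edit, 106 ± 2.32 CPM in IR virus, 108 ± 6.45 CPM in IR and 80.7 ± 15.7 CPM in Sham hearts. All IR virus and IR hearts were above all Sham hearts, and IR edit replicate 3, at 78.3 CPM, lay within the Sham range. Its log2 difference from Sham was 0.33 in IR edit (adjusted p = 0.129), 0.39 in IR virus (adjusted p = 0.213) and 0.42 in IR (adjusted p = 0.424). Ctss averaged 18.7 ± 2.43 CPM in IR edit, 20.9 ± 1.01 CPM in IR virus, 20.3 ± 0.704 CPM in IR and 16.5 ± 5.68 CPM in Sham hearts. Cybb, the NADPH oxidase subunit gene, averaged 17.6 ± 1.41 CPM in IR edit, 20.6 ± 0.739 CPM in IR virus, 20.6 ± 2.55 CPM in IR and 17.5 ± 3.87 CPM in Sham hearts. Pf4, the platelet factor 4 gene that resident macrophages also express, averaged 5.28 ± 0.916 CPM in IR edit, 4.41 ± 0.249 CPM in IR virus, 4.33 ± 0.808 CPM in IR and 5.18 ± 0.427 CPM in Sham hearts.

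Single hearts set much of the spread of the list. IR edit replicate 3 was the lowest of its group for 24 of the 29 tested members, and Sham replicate 1 was the highest of its group for 25. Their general leukocyte sums were the lowest of IR edit (84.3 CPM) and the highest of Sham (106 CPM). Leaving out IR edit replicate 3 brought 3 members past the threshold in IR edit against Sham (Adgre1, Cx3cr1 and Lyz2), and leaving out Sham replicate 1 brought 3 others (C1qa, Csf1r and Fcgr2b). Over the 13 fits with a library left out, all genes called in this comparison ran from 478 to 2351. The fit of all libraries called 1257.

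**Figure D4:**
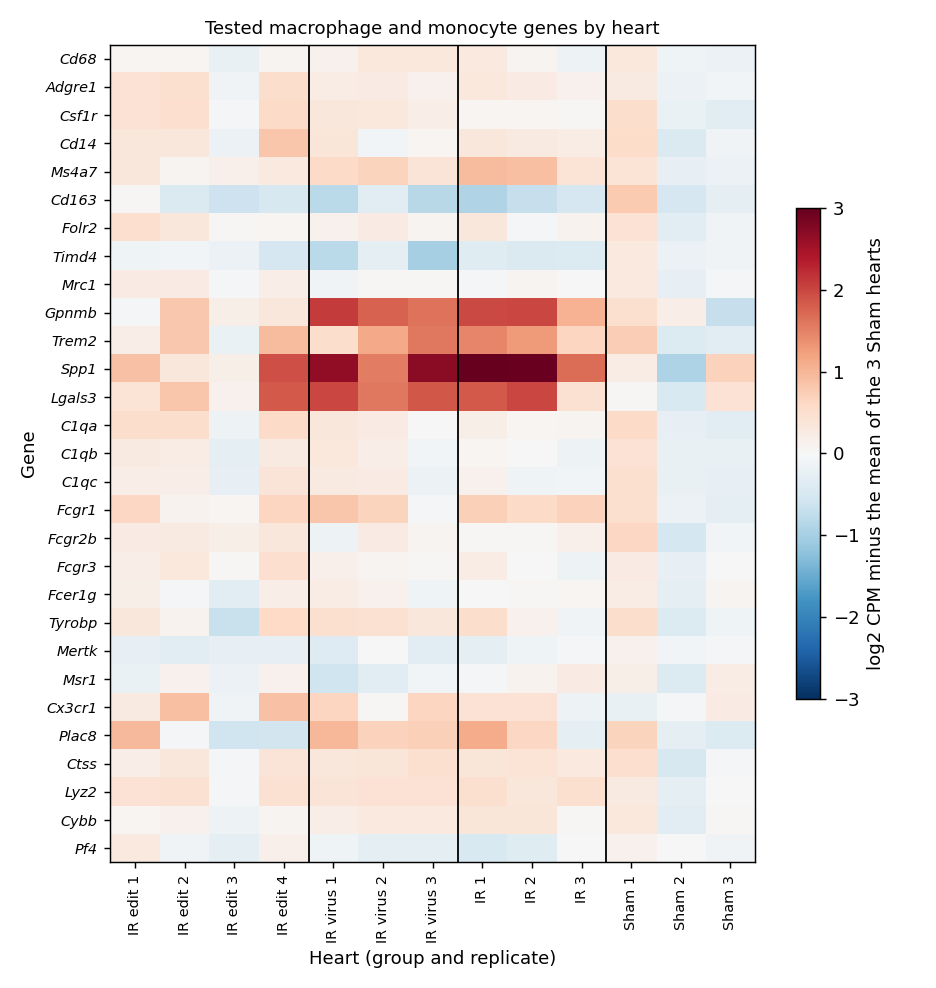
Log2 CPM of each of the 29 tested members (rows) in each heart (columns, by group) minus the mean of the 3 Sham hearts, in colour from -3 to 3, with values beyond 3 drawn at the end of the scale. Gpnmb, Trem2, Spp1 and Lgals3 are redder in most IR virus and IR columns than in most IR edit columns, while the other rows lie closer to 0 in most hearts. Exceptions are Trem2 in IR virus replicate 1 and Lgals3 in IR replicate 3, which are pale, and Spp1 and Lgals3 in IR edit replicate 4, which are red.

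Other genes of the macrophage and monocyte pathway were read from further lists. Of 11 tested further resident genes, such as Lyve1 and the complement receptor gene Vsig4, 0 were called in IR edit against Sham, IR virus or IR by edgeR. The member with the smallest p was Maf, a resident macrophage factor, against Sham (-0.29 ± 0.10, adjusted p = 0.0732) and Clec10a, a lectin gene, against IR virus (-0.66 ± 0.29, adjusted p = 0.304). Of 15 further lipid and lysosome genes, such as Apoe and the cathepsin gene Ctsd, 0 were higher and 1 lower in IR edit against Sham, the lipoprotein lipase gene Lpl (-0.47 ± 0.09, adjusted p = 0.00558), which heart muscle also expresses. Of all tested genes, 8.01% were called in IR edit against Sham, 2.02% against IR virus and 1.42% against IR. None of the 15 was called against IR virus, where the lipid droplet gene Plin2 had the smallest p (-0.26 ± 0.07, adjusted p = 0.0860). The median log2 fold change of these 15 was -0.08 in IR edit against IR virus, beside -0.01 for all tested genes.

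Of 11 tested further monocyte genes, 5 were higher and 1 was lower in IR edit against Sham (8.01% of all tested genes were called there), and 1 was higher and 1 lower against IR virus (2.02% of all tested genes). The gene that was lower in both was Ccr2, the chemokine receptor with which monocytes leave the blood. Ccr2 stood at 4.04, 4.97, 3.16 and 3.196 CPM in IR edit hearts, at 8.76, 8.95 and 9.22 CPM in IR virus hearts, at 11.04, 11.9 and 6.11 CPM in IR hearts, and at 8.76, 4.52 and 9.13 CPM in Sham hearts. Every IR edit heart was below every IR virus and IR heart, and only Sham replicate 2 overlapped with IR edit. It was 2.33-fold lower in IR edit than in IR virus (-1.22 ± 0.25, adjusted p = 0.0211 in edgeR), 2.51-fold lower than in IR (-1.33 ± 0.25, adjusted p = 0.0136) and 1.94-fold lower than in Sham (-0.96 ± 0.25, adjusted p = 0.0317). Against the mean of IR and IR virus the log2 fold change was -1.27 ± 0.22 (adjusted p = 0.00431), and this call held in all 13 fits with a library left out. The calls against IR virus, IR and Sham were lost without IR edit replicates 2 and 4 (adjusted p = 0.0824, 0.0600 and 0.160), where the log2 fold changes were -1.30, -1.41 and -1.04. The call against IR virus was lost without any 1 of the 3 IR virus hearts or without IR edit replicate 4, that against IR without IR replicate 1 or 2, and that against Sham without Sham replicate 1 or 3 or IR edit replicate 4, with adjusted p up to 0.119.

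The further monocyte genes that were higher included Nr4a1, Thbs1 and Vcan. Nr4a1, a nuclear receptor gene of patrolling monocytes that many cell types also switch on under stress, was the gene called higher in both comparisons. It averaged 36.7 ± 12.3 CPM in IR edit, 3.38 ± 0.621 CPM in IR virus, 4.50 ± 1.55 CPM in IR and 3.04 ± 0.151 CPM in Sham hearts (3.59 ± 0.27 against Sham, adjusted p = 9.11e-06, and 3.44 ± 0.26 against IR virus, adjusted p = 1.04e-05). Thbs1 and Vcan encode matrix proteins that fibroblasts also make. Their log2 fold changes against Sham were 1.95 ± 0.37 (adjusted p = 0.00721) and 1.53 ± 0.35 (adjusted p = 0.0190), and without IR edit replicates 2 and 4 they were 1.10 and 0.60 and no longer called.

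Of 11 tested growth factor and regulator genes, 1 was higher in IR edit against Sham, the blood cell factor gene Runx1 (0.89 ± 0.21, adjusted p = 0.0209), and 1 was lower against IR virus, Csf1. The background was 8.01% of all tested genes called against Sham and 2.02% against IR virus. Csf1, the growth factor on which macrophages depend, stood at 43.8, 39.4, 30.7 and 38.2 CPM in IR edit hearts, at 59.9, 58.1 and 54.1 CPM in IR virus hearts, at 52.0, 51.5 and 49.6 CPM in IR hearts, and at 53.9, 38.5 and 40.8 CPM in Sham hearts. All IR edit hearts were below all IR virus and IR hearts and overlapped with Sham. Its log2 fold change was -0.59 ± 0.12 in IR edit against IR virus (adjusted p = 0.0172), -0.42 against IR (adjusted p = 0.0971) and -0.51 ± 0.10 against their mean (adjusted p = 0.0111). The call against IR virus was lost without IR virus replicate 1 or 2 (adjusted p = 0.0946 and 0.0733), and both calls were lost without IR edit replicates 2 and 4 (adjusted p = 0.0935 and 0.0953). Of 9 tested inflammasome and cytokine genes, 2 were higher in IR edit against Sham, Tlr4 (0.98 ± 0.22, adjusted p = 0.0156) and Il1b (1.28 ± 0.35, adjusted p = 0.0377), and 1 was lower, the inflammasome adaptor gene Pycard (-0.62 ± 0.15, adjusted p = 0.0241), with the same background of 8.01%. None of the 9 was called against IR virus, where Tlr4 had the smallest p (0.75 ± 0.22, adjusted p = 0.0951). Without IR edit replicates 2 and 4, Runx1, Tlr4, Il1b and Pycard were not called.

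**Figure D5:**
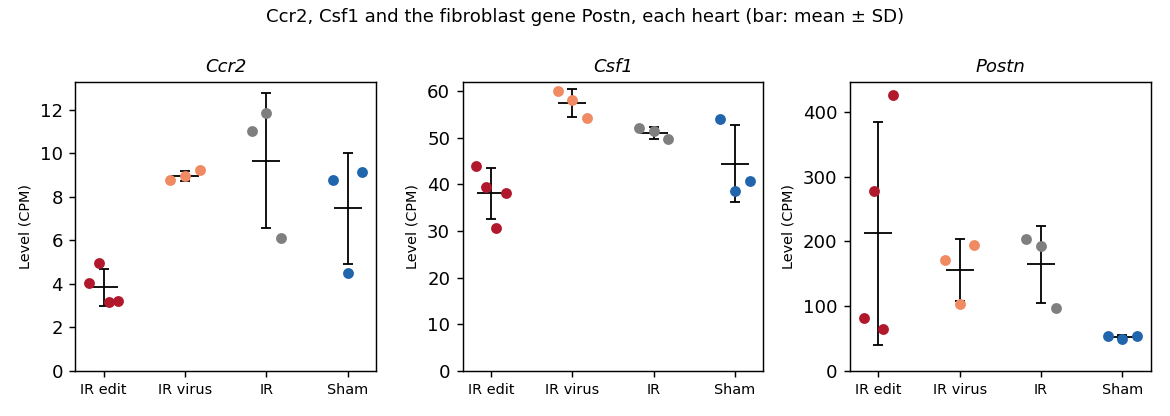
Levels in CPM (y axis, from 0) of Ccr2, Csf1 and the fibroblast gene Postn in each heart, with groups on the x axis, 1 point per heart and bars for mean ± SD. All IR edit hearts are below the IR virus and IR hearts for Ccr2 and Csf1, while Postn in IR edit runs from 64.9 to 426 CPM.

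Fibroblast genes did not all follow 1 pattern. Postn, a matrix gene of activated fibroblasts, stood at 81.0, 278, 64.9 and 426 CPM in IR edit hearts, at 171, 103 and 194 CPM in IR virus hearts, at 204, 193 and 96.7 CPM in IR hearts, and at 54.0, 49.8 and 54.6 CPM in Sham hearts. IR edit replicates 2 and 4 had the highest Postn of all hearts. Gpnmb there was 2.15 and 1.54 CPM, above the other IR edit hearts and below every IR virus and IR heart. The mean log2 CPM of Gpnmb, Trem2 and Spp1 ranked hearts as Postn did within IR edit, IR virus and IR, but not within Sham. In replicate order it was -0.06, 0.25, -0.36 and 0.67 in IR edit, 1.36, 1.08 and 1.57 in IR virus, and 1.78, 1.67 and 0.72 in IR. A link between these genes and Postn was not tested. Cthrc1, a gene of scar fibroblasts, was, like Gpnmb, higher on average in IR virus and IR than in IR edit and Sham. It stood at 0.0371, 0.269, 0.155 and 0.405 CPM in IR edit hearts, at 0.637, 0.630 and 0.7997 CPM in IR virus hearts, at 1.30, 0.682 and 0.737 CPM in IR hearts, and at 0.189, 0.215 and 0.142 CPM in Sham hearts. All IR edit hearts were below all IR virus and IR hearts and overlapped with Sham, on 146 reads over all 13 libraries. Its log2 fold change was -1.66 ± 0.46 in IR edit against IR virus (adjusted p = 0.0820), -2.05 ± 0.44 against IR (adjusted p = 0.0317) and -1.85 ± 0.40 against their mean (adjusted p = 0.0165), the last 2 chosen after its values were seen. The call against IR was lost without IR virus replicate 1, IR edit replicate 2, or IR replicate 1 or 2 (adjusted p up to 0.190) and when the fit held no other group (adjusted p = 0.0959), while that against the mean was lost in none of the 13 fits with a library left out. Without IR edit replicates 2 and 4 it was also called against IR virus (-2.91, adjusted p = 0.0424).

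Of the 10 fibroblast genes, 10 had a positive log2 fold change in IR virus against Sham (median 0.77, beside 0.010 for all tested genes) and in IR against Sham (median 0.67, beside 0.00098), and 0 were called by edgeR in either. In IR edit against IR virus 2 of the 10 were positive and the median was -0.25, and none was called. In IR edit against IR 5 were positive and the median was -0.05, and 1 was lower, Cthrc1 (1.42% of all tested genes were called there). The summed CPM of the 10 ran from 1218 to 2196 in IR edit, from 1440 to 1994 in IR virus, from 1333 to 1955 in IR and from 1108 to 1163 in Sham hearts, with 4 higher and 0 lower in IR edit against Sham (8.01% of all tested genes were called there), among them Col1a1 (1.10 ± 0.26, adjusted p = 0.0202), Postn (2.01 ± 0.52, adjusted p = 0.0297) and Col1a2 (0.78 ± 0.21, adjusted p = 0.0389). Their part in the results above was not tested.

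Other cell types were read in the same way, with the same background of 8.01% against Sham. In IR edit against Sham, 2 of 3 tested platelet genes were higher (Itgb3, 1.07 ± 0.19, adjusted p = 0.00476, and Itga2b, 1.90 ± 0.49, adjusted p = 0.0296). There 1 of 8 endothelial genes was lower (Fabp4, -0.39 ± 0.09, adjusted p = 0.0156) and 1 of 8 heart muscle genes was lower (Atp2a2, -0.49 ± 0.11, adjusted p = 0.0201). Of 12 general leukocyte genes 1 was higher, Cytip (0.92 ± 0.24, adjusted p = 0.0326). Without IR edit replicates 2 and 4, Postn (log2 fold change 0.47, adjusted p = 0.581), Col1a1 (0.72, adjusted p = 0.267), Col1a2 (0.40, adjusted p = 0.487), Cytip, Fabp4, Atp2a2 and Lpl were not called against Sham. No dendritic cell, neutrophil, mast cell, T and NK cell or red blood cell gene was called in that comparison. The gene with the smallest p of each of these lists was Clec9a, S100a9, Hdc, Cd4 and Hbb-bt, with adjusted p from 0.119 for Cd4 to 0.614 for S100a9. Against IR virus, where 2.02% of all tested genes were called, 1 of 3 platelet genes was higher, Itgb3 (0.79 ± 0.18, adjusted p = 0.0343). That call was lost in 6 of the 13 fits with a library left out (adjusted p up to 0.168), without IR edit replicates 2 and 4 (0.92, adjusted p = 0.0643) and when the fit held no other group (adjusted p = 0.0660). No gene of the leukocyte, endothelial, heart muscle or those 5 other lists was called against IR virus, and the smallest p of each list was that of Cytip, Tie1, Atp2a2, Xcr1, S100a8, Kit, Cd4 and Hbb-bt, with adjusted p from 0.0757 for Xcr1 to 0.683 for Cd4. The neutrophil gene Ly6g had 0 reads in all 13 libraries, and the summed CPM of 10 neutrophil genes stayed between 0.810 and 4.53 in every heart.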

How the data were processed

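RNA from 13 whole mouse hearts in 4 groups was measured by sequencing. Per the labels' protocols, RNA was isolated with an RNeasy Micro kit and libraries were made with a KAPA mRNA HyperPrep kit. Each library has 1 deposited table of raw counts, in which the authors list reads by gene symbol. The submitters' processing notes name build mm10 and the tools HISAT2 (2.1.0), featureCounts (1.6.2), Trimmomatic (0.39) and FastQC (0.11.8). Which annotation was counted, and whether strand was used, is not given in the sources used here, so reads of overlapping or antisense genes cannot be told apart.

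Groups were taken from the sample titles. Counts were scaled with TMM and low genes removed with filterByExpr in edgeR 4.0.16 (R 4.3.3), which left 15690 genes. The model had 1 mean for each group over the 13 libraries and was tested by edgeR's quasi-likelihood method, with Benjamini-Hochberg adjustment over all genes and a threshold of 0.05. Standard errors come from the size of the log2 fold change over the root of F. Levels are CPM with TMM, and log2 CPM uses a prior count of 2. Total counts of 20634820 to 27265276 per library leave the lipid or scar genes with 4 to 135 reads per library, and counting error adds to their spread. The procedure was tested on simulated data. Alternatives were DESeq2 size factors, no filter, the DESeq2 1.42.0 Wald test, fits limited to the groups in a comparison, a replicate block, leaving out IR edit replicates 2 and 4, and leaving out each library. Of the comparisons, 7 pairs or means and a joint test were planned, and IR edit against the mean of IR and IR virus was added after the values were seen. All members are named. From every other list the text names up to 3 called genes with the smallest p in the comparisons of IR edit with Sham and with IR virus, or else the gene with the smallest p. The result of 1 list is not reported here. The members and lists were chosen with earlier results of these data known. The labels do not say whether the replicate numbers pair the hearts, and the fit reported treats the hearts as unpaired. Gene positions come from GENCODE and promoter windows from RefSeq.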

Additional observations from a re-analysis of the deposited data

Results flagged for a closer look

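In the IR edit group, 30 items were examined, the 29 tested members and the contrast of lipid or scar minus resident level. They share the same hearts and so are not independent. Of the 30, 6, all of them members, had 1 heart far from the other 3 in relation to the group's range. For a single item chance gives about 1 group in 20. For 5 of the 6 members it was IR edit replicate 3. Its level was 4.04 CPM for Cd68 with the next heart at 4.88, 53.8 CPM for Mrc1 with the next at 64.2, 15.5 CPM for C1qa with the next at 24.8, 14.9 CPM for C1qb with the next at 21.1 and 78.3 CPM for Lyz2 with the next at 107. This heart had the lowest general leukocyte sum of its group (84.3 CPM) and the lowest total count of all libraries (20634820). For Mertk it was IR edit replicate 2, at 10.8 CPM with the next heart at 11.2, a small gap in a narrow group. The groups of 3 hearts were too small for this check.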

How the results depend on the processing

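Members called were 0 to 3 in IR edit against Sham, 0 to 3 in IR virus against Sham, 0 to 1 in IR against Sham, 0 to 4 for the mean of IR and IR virus against Sham, 0 to 1 in IR edit against IR virus, 0 to 2 in IR edit against IR, 1 to 3 in IR edit against that mean, 0 to 0 in IR virus against IR and 1 to 4 for any difference when each library was left out. In the same order, all genes called ran from 478 to 2351, 0 to 130, 0 to 22, 1 to 251 and 96 to 477. For the last 4 they ran from 59 to 489, 265 to 898, 0 to 1 and 197 to 1331. With no filter on low counts, members called were 7, 6, 8, 8, 3, 6, 5, 1 and 9 in the same order, and all genes called were 2205, 863, 598, 940, 1018, 1021, 1399, 37 and 2292, beside 1257, 2, 2, 3, 317, 223, 586, 0 and 527 in the fit reported. The Wald test of DESeq2 called 3 members in IR virus against Sham, 3 in IR against Sham, 2 in IR edit against IR and 3 for the mean against Sham. All genes it called there were 202, 57, 443 and 241. A fit of only the groups compared called 3, 2 and 3 members against Sham for IR virus, IR and their mean, where all genes called were 203, 115 and 394. It called 246 genes in IR edit against Sham. DESeq2 size factors gave 1 member for the mean against Sham, and 26 genes in all. Without IR edit replicates 2 and 4, 3 members were called in each of IR virus, IR and their mean against Sham, where all genes called were 257, 144 and 377. In IR edit against that mean 1 member and 146 genes were called. The genes called in IR edit numbered 158 against Sham, 90 against IR virus and 78 against IR. The cause of these changes was not tested.

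The labels do not say whether the replicate numbers of the titles pair the hearts. Correlations of same-numbered hearts ran from -0.13 to 0.22 over 18 pairs, 4 of them over 0.1. They cannot show whether such hearts shared a surgery day or litter. With the number as a replicate block, 3 members were called in IR virus against Sham and 3 for the mean against Sham. All genes called there were 174 and 181. In IR edit against IR 2 members and 122 genes were called, and in IR edit against Sham 590 genes. Number 4 occurs only in IR edit, so the block also fits that heart exactly. The effect of the block therefore combines leaving out that heart with an adjustment for the other numbers. Ccr2 was not called under the block against IR virus (adjusted p = 0.0892), IR (0.0857) or Sham (0.120). Without IR edit replicate 4 alone, its call against IR was kept.

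The contrast of lipid or scar minus resident level kept its direction under every alternative tried. It ran over fits with a library left out from -1.70 to -1.29 for IR edit minus IR virus, -1.81 to -1.27 for IR edit minus IR, 0.35 to 0.71 for IR edit minus Sham, 1.87 to 2.28 for IR virus minus Sham and 1.84 to 2.39 for IR minus Sham. IR edit minus Sham was 0.21 without IR edit replicates 2 and 4, and IR virus minus Sham was 2.37 without Trem2. Directions turned for Gpnmb (-0.054) and Trem2 (-0.11) in IR edit against Sham without IR edit replicates 2 and 4. With a library left out, values ran from -0.0050 to 0.54 for Gpnmb in IR edit against Sham, from -0.71 to 0.044 for Cd163 in IR edit against Sham and from -0.15 to 0.26 for Gpnmb in IR virus against IR. Cthrc1 in IR edit against Sham was -1.03 without IR edit replicates 2 and 4, -0.31 under the replicate block and -0.31 to 0.62 with a library left out. Of 1745 single-gene values under the alternatives, 1499 kept direction and side of the threshold, 102 gained a call (36 with no filter), 135 lost one and 9 turned. Of 4 called member values 1 was kept in all 13 fits with a library left out, and of 26 other called values 8 were. Low depth limits Spp1, Trem2, Cthrc1 and the monocyte genes.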
